A study of Homo sapiens with 8 samples.

Results

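The neurogenic basic helix-loop-helix genes examined here were 9 listed members, NEUROD1, NEUROD2, NEUROG1, NEUROG2, NEUROG3, ATOH1, OLIG1, OLIG2 and OLIG3, among 20090 protein-coding genes on chromosomes 1 to 22 and X. Each was taken as its gene record in the GENCODE annotation of GRCh37 plus 2 kb upstream, a window of 3.68 to 14.5 kb. The genes were listed by name and not by a cutoff on a measured value, but earlier results of these data were known when they were listed. PC9 cells, a human lung adenocarcinoma line, were treated for 5 days with DMSO or with 1 μM GSK126, a small molecule inhibitor of the histone methyltransferase EZH2. H3K27me3 and H3K4me3 were each profiled by ChIP-seq in 2 DMSO and 2 GSK126 libraries, and D. melanogaster chromatin with an H2Av antibody was spiked into the reactions of both treatments. All libraries came from 1 cell line at 1 dose and 1 time, and the study calls its replicates biological, without the labels saying more. The deposited data were 14 lists of islands, which are regions enriched in tags as called by SICER in each library alone, on hg19 (GRCh37).

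Basic helix-loop-helix proteins of this family bind the E-box motif as dimers with the broadly expressed E proteins, and they drive cells from a progenitor state into neuronal, glial or endocrine fates. The neurogenins act early and activate the NEUROD genes, which carry differentiation forward. ATOH1 specifies cerebellar granule neurons, inner ear hair cells and intestinal secretory cells. Of the OLIG genes, OLIG2 patterns the ventral neural tube and specifies oligodendrocytes and motor neurons. OLIG1 acts in oligodendrocyte maturation, and OLIG3 is active in the dorsal spinal cord and hindbrain. In cells outside these lineages such developmental regulators are classic targets of Polycomb repressive complex 2, whose catalytic subunit EZH2 places H3K27me3. H3K4me3 marks promoters that are active or poised, and a promoter that carries both marks is called bivalent. NEUROD1 and ATOH1 are also known from neuroendocrine tumours, including those of the lung.

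A few promoters are shown here in place of the whole set because they span the patterns in the lists: NEUROG2 with both marks, ATOH1 with H3K4me3 and little H3K27me3, NEUROD2 with H3K27me3 islands in every library, and OLIG3 with H3K27me3 in DMSO that was lower after GSK126. They are RefSeq sequences of 300 bases, from 250 before to 50 after the start, of the GRCh38.p14 build, and each was found once, by an exact match, in GRCh37. Capitals mark the E-box CANNTG, which reads the same on both strands, and all other bases are in lower case.
NEUROG2: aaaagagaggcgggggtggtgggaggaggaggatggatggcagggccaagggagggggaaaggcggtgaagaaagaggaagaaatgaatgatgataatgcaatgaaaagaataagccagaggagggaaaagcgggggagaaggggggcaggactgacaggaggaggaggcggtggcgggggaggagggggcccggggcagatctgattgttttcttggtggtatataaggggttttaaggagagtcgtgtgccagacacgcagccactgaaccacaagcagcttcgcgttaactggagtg
ATOH1: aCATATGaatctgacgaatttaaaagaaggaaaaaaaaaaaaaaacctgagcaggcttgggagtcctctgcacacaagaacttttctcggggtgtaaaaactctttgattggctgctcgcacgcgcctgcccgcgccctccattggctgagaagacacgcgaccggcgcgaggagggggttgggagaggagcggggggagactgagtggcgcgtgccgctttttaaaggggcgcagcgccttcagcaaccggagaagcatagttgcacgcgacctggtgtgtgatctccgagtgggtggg
NEUROD2: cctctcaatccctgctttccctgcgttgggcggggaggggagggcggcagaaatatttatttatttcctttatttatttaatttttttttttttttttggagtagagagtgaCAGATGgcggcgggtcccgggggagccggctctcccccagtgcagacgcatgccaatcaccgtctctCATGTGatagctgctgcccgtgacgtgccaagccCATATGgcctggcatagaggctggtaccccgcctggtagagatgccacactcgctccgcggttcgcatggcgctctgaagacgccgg
OLIG3: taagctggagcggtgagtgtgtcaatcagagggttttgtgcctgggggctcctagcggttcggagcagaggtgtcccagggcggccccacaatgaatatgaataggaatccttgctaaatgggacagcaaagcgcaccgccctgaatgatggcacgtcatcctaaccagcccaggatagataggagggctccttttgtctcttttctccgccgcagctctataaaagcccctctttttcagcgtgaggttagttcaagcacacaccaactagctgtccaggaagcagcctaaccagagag
On GRCh37 the NEUROG2 promoter lay at chr4:113437287-113437586 on the minus strand, that of ATOH1 at chr4:94749654-94749953 on the plus strand, that of NEUROD2 at chr17:37764124-37764423 on the minus strand and that of OLIG3 at chr6:137815482-137815781 on the minus strand. Sequences were matched for 7 of the 9 members, all but OLIG1 and OLIG2. The NEUROD2 promoter held 3 E-boxes, those of ATOH1 and NEUROG3 held 1 each, and those of NEUROD1, NEUROG1, NEUROG2 and OLIG3 held 0, whereas 68.7% of all 35116 RefSeq promoters of this length held at least 1. CG dinucleotides numbered 35 in NEUROG1, 31 in NEUROD1, 31 in NEUROG3, 22 in ATOH1, 19 in NEUROD2, 10 in NEUROG2 and 10 in OLIG3, beside a median of 14 over all promoters. The OLIG3 promoter was covered by H3K27me3 islands over all 300 bp in both DMSO spike-in lists, over 0 bp after GSK126 in replicate 1 and over 300 bp after GSK126 in replicate 2. The NEUROD2 promoter was covered over all 300 bp in each of these lists, with no H3K4me3 island on it in any.

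H3K27me3 covered most of these genes in untreated cells. With spike-in normalization, where the authors removed tags at random from the GSK126 library by a factor taken from its D. melanogaster tags and kept all DMSO tags, 7 of the 9 members were covered to at least 50% in both DMSO lists, which was true of 11.6% of all genes. The exceptions were NEUROD1, covered to 36.7% in both DMSO lists, and ATOH1, covered to 38.0% in replicate 1 and 0% in replicate 2. At the members other than NEUROD1, ATOH1 and NEUROG2, islands ran far beyond the genes. The island over NEUROG3, the regulator of endocrine precursors in pancreas and gut, was 46.6 kb long in DMSO replicate 1 and 47.0 kb in replicate 2, and the one over NEUROG1, a regulator of sensory neurons, was 16.4 kb and 85.4 kb long. At NEUROG2, a regulator of cortical and spinal neurogenesis, the island over the start was only 5.0 kb and 4.4 kb long.

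**Figure D1:**
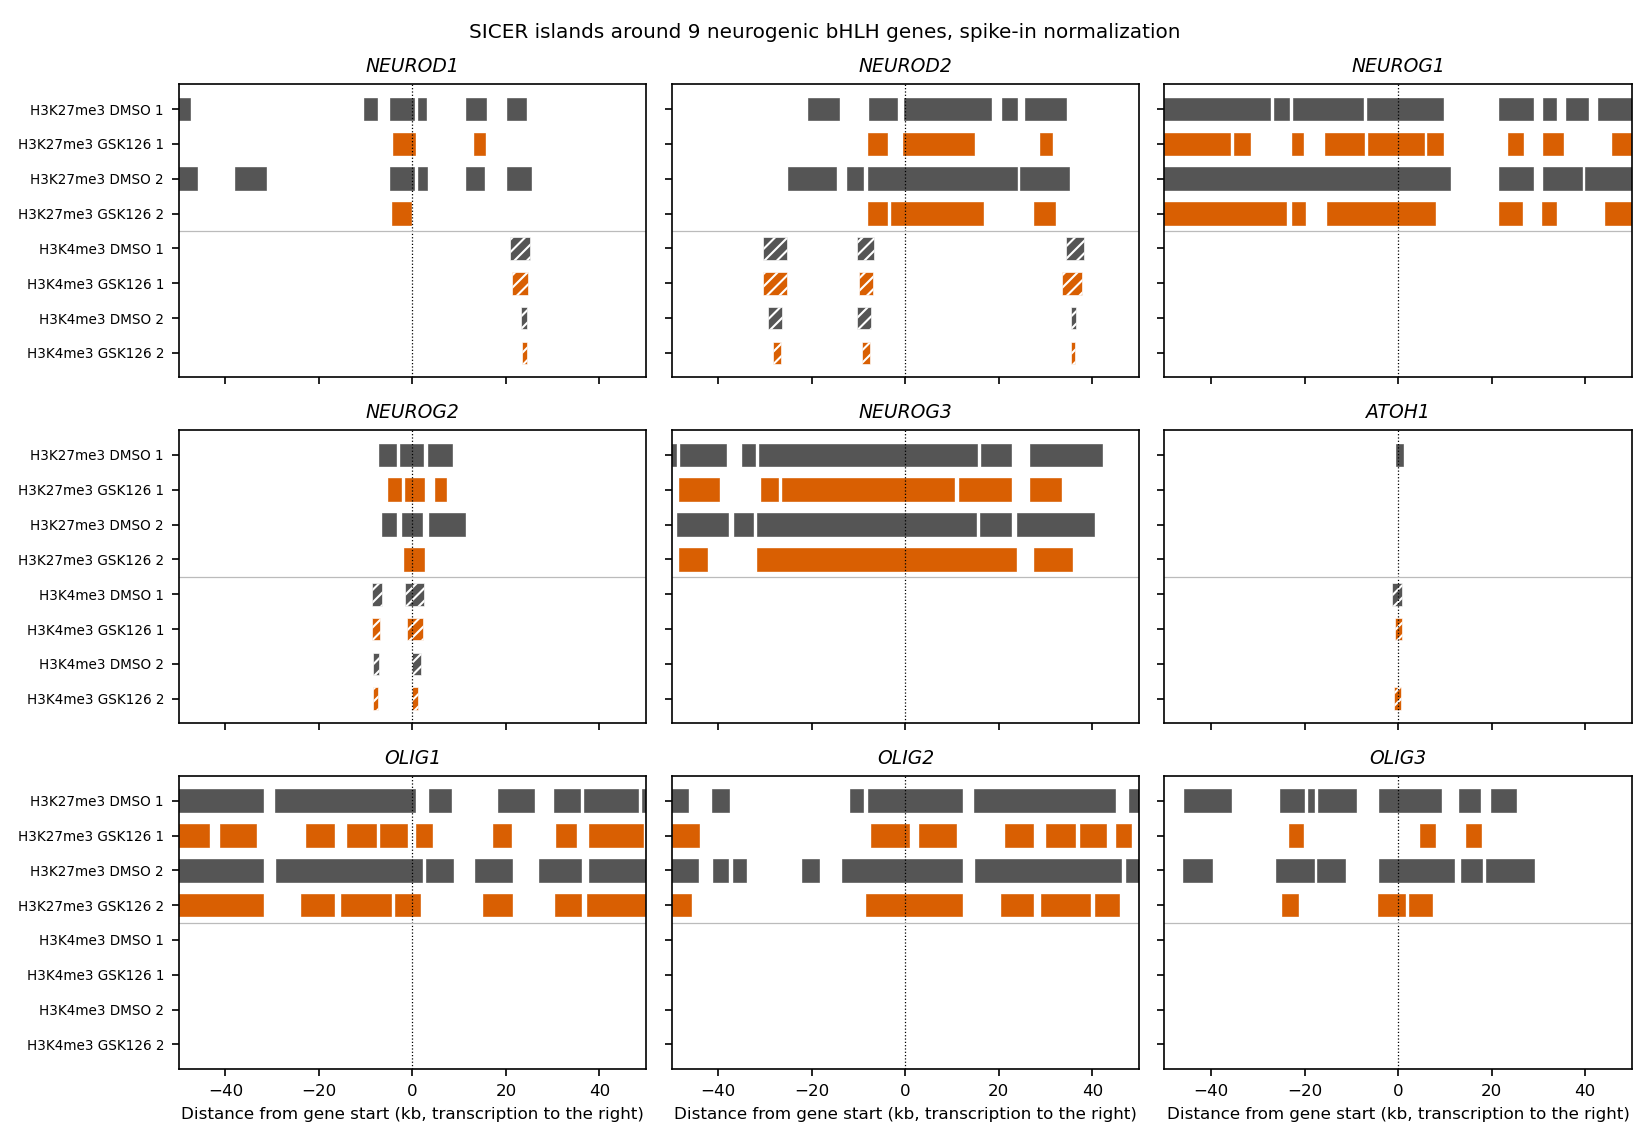
Islands within 50 kb of the start of each member in the spike-in normalized lists, with distance from the start in kb on the x axis and a row for each library (grey DMSO, orange GSK126, hatched H3K4me3). H3K27me3 islands of GSK126 libraries covered less than those of the matching DMSO library at each member that had any in DMSO, and only NEUROG2 and ATOH1 had an H3K4me3 island at the start.

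The H3K4me3 lists checked the identity of the cells. In both DMSO lists 5 of 7 epithelial or lung adenocarcinoma markers had an H3K4me3 island within 1000 bp of the start (KRT8, KRT18, KRT19, CDH1 and EGFR), EPCAM had one in replicate 1 only and CLDN4 had none, and none of the 7 was covered by H3K27me3 beyond a mean of 11.9%. Of 8 neuronal, neuroendocrine or oligodendrocyte markers 2 had such an island in both (SNAP25 and MBP), and of 3 haematopoietic markers 0 did. Depth differed between lists. The background tag density read from the island scores was 1.65 and 2.33 tags per 200-bp window in the DMSO spike-in lists of H3K27me3 and 0.382 and 0.455 in the GSK126 spike-in lists, and the H3K4me3 lists of replicate 2, at 0.263 to 0.302, were much shallower than those of replicate 1, at 1.48 to 1.77. Fewer tags give a SICER list less power to call an island, so the spike-in lists differ in both mark and depth, which cannot be told apart from cover alone. Nor can a lower mark in all cells be told apart from its loss in a share of cells.

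The first comparison asked how much H3K27me3 cover the members had after EZH2 inhibition with spike-in normalization. Over the summed length of the 9 windows, cover was 71.1% in DMSO and 49.8% in GSK126 in replicate 1, and 73.0% and 64.7% in replicate 2. The mean difference was -14.8 ± 9.16 percentage points (SD, n = 2), lower in both replicates but by unequal amounts. A pair of replicates cannot give a sign-flip p below 0.5, so no p-value is given and the SD between replicates is the error. A gene was called lower when its cover was at least 10 points lower with GSK126 in both replicates. By this rule 2 of the 9 members, NEUROD1 and OLIG3, were lower, beside 15.8% of all genes, and none was higher. Among genes covered to at least 50% in both DMSO lists, 68.6% were called lower with a median difference of -30.8 points, whereas 1 of the 7 members in that class, OLIG3, was called lower, and the median of the 7 was -0.182 points. The members' windows were short, with a median of 4.27 kb beside 16 kb for all genes of that class. In windows of equal length, 2 kb on either side of the start, 50.9% of 2992 covered genes were called lower and 2 of the 8 covered members were, again NEUROD1 and OLIG3.

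Of the NEUROD genes, NEUROD1, which also acts in pancreatic beta cells, was lower after GSK126. Its window was covered to 36.7% in DMSO and 17.6% in GSK126 in replicate 1 and to 36.7% and 12.1% in replicate 2, so both GSK126 values lay under both DMSO values, and the mean difference was -21.9 ± 3.89 points. The gene lies on chromosome 2 at 182533022 to 182545554, its canonical transcript at 182541194 to 182545244 has 2 exons, and the record overlaps that of CERKL on the same strand. In each DMSO list 3 islands overlapped the window, 11.4 kb in all in replicate 1 and 11 kb in replicate 2, and GSK126 islands covered 7 kb and 4.2 kb of these bases. The upstream island reached 0.353 kb past the start in both DMSO lists and 0.553 kb past it in GSK126 replicate 1, but ended 0.247 kb before the start in GSK126 replicate 2. With a stricter island threshold the mean difference was only -8.80 points, which ended the call.

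NEUROD2, a regulator of cortical and hippocampal neurons, had nearly the same cover in both treatments. Its window, on chromosome 17 from 37759789 to 37768030, was covered to 83.0% in DMSO and 82.6% in GSK126 in replicate 1 and to 100% in both libraries of replicate 2. The values differed by replicate and not by treatment. Of the 24.6 kb of DMSO islands that overlapped the window in replicate 1, GSK126 islands covered 18.8 kb, and of 31.8 kb in replicate 2 they covered 23.8 kb. At PPP1R1B, a signalling gene whose start lies 17 kb from that of NEUROD2, cover was 48.9% and 85.9% in DMSO and 0% in both GSK126 lists.

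Among the neurogenins cover of the gene windows barely moved. NEUROG1 and NEUROG3 were covered to 100% in all 4 spike-in lists. NEUROG2 was covered to 92.9% in DMSO and 90.03% in GSK126 in replicate 1 and to 88.7% and 94.3% in replicate 2, so the replicates went opposite ways. Differences in cover lay mostly outside these windows, whereas the tag density inside the islands over them, compared below, was lower with GSK126 on the spike-in scale. The 85.4-kb NEUROG1 island of DMSO replicate 2 was split into 3 islands after GSK126, which covered 73.4 kb of it, and 15.4 of the 16.4 kb in replicate 1 were covered. At NEUROG3 GSK126 islands covered 44.4 of 46.6 kb in replicate 1 and 46.8 of 47 kb in replicate 2. Within 50 kb of the NEUROG3 start, cover was 82.0 kb in DMSO and 67 kb in GSK126 in replicate 1 and 84.8 and 69.2 kb in replicate 2, so both GSK126 values lay under both DMSO values. The NEUROG2 island was short, and GSK126 islands covered 4.2 of 5 kb and 4 of 4.4 kb of it.

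ATOH1 was nearly free of the mark. A single H3K27me3 island of 1.6 kb lay over its start in DMSO replicate 1 of the spike-in lists, and none of the other 7 H3K27me3 lists had an island there. No other H3K27me3 island of the spike-in lists lay within 50 kb of the start in either treatment.

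The OLIG genes differed between replicates. OLIG3, which is active in the dorsal spinal cord and hindbrain, was covered to 100% in both DMSO lists, to 0% in GSK126 replicate 1 and to 84.2% in GSK126 replicate 2. The direction was shared and the size was not, with a mean of -57.9 ± 59.5 points, so the SD exceeded the difference. Its island was 13.2 kb long in DMSO replicate 1, of which 3.2 kb downstream of the gene was covered after GSK126, and 16 kb long in replicate 2, of which 10.6 kb was. OLIG2, required for motor neurons and oligodendrocytes, was covered to 100% in both DMSO lists, 58.2% in GSK126 replicate 1 and 100% in GSK126 replicate 2. In GSK126 replicate 1 its 20.2-kb island was split into pieces of 8.2 and 7.8 kb with a gap inside the gene. OLIG1, which acts in oligodendrocyte maturation, was covered to 59.8% and 53.2% in replicate 1 and to 92.5% and 83.2% in replicate 2, differences of -6.58 and -9.36 points that were both under the 10-point rule. The DMSO islands over OLIG1, 30.0 and 31.2 kb long, were split into 3 islands each after GSK126, which covered 17.8 kb and 22.8 kb of them. The starts of OLIG1 and OLIG2 lie 44.2 kb apart on chromosome 21, so these genes share much of their flanks and are not independent.

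**Figure D2:**
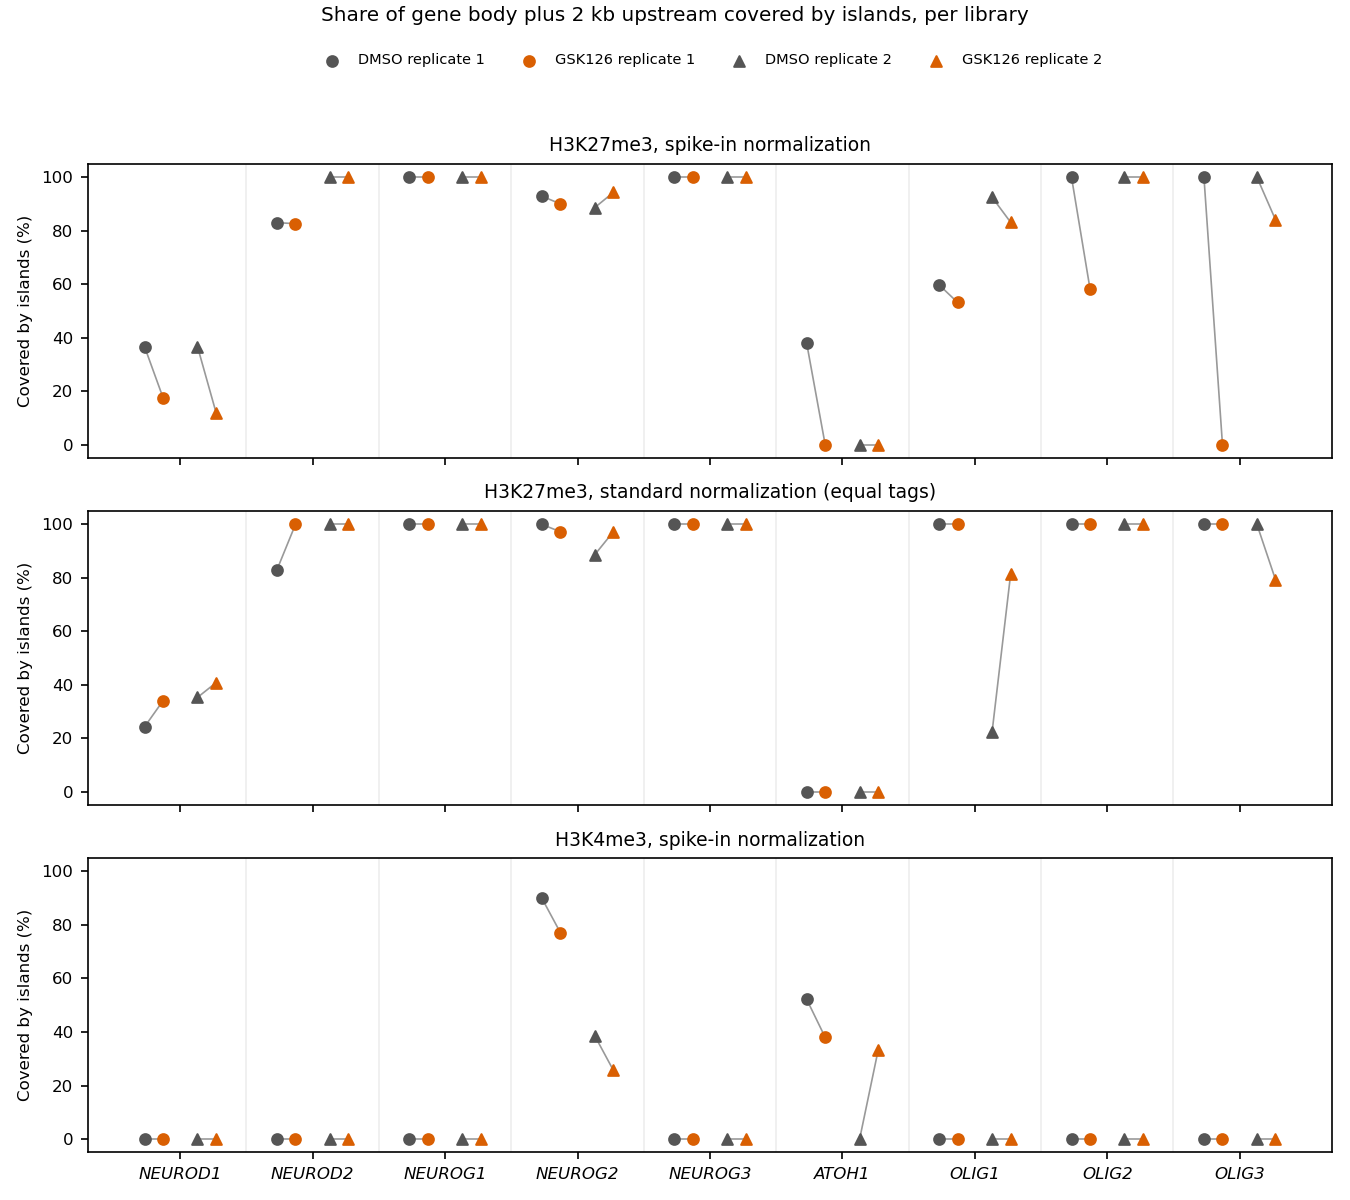
Share of the gene body plus 2 kb upstream covered by islands (%, y axis) for each member, with DMSO in grey and GSK126 in orange, replicate 1 as circles and replicate 2 as triangles, and a line joining the libraries of a replicate. Both GSK126 points lie well under their DMSO points only at NEUROD1 and OLIG3 in the top panel, the middle panel shows cover at equal tag number, and the bottom panel shows H3K4me3 at NEUROG2 and ATOH1 alone.

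The second comparison asked whether the difference lay in the flanks. Over the union of the regions within 50 kb of the 9 starts, H3K27me3 cover was 44.8% in DMSO and 27.6% in GSK126 in replicate 1 and 50.6% and 30.5% in replicate 2, a mean difference of -18.6 ± 2.01 points. By the 10-point rule 7 of the 9 members were lower in this region, all but NEUROG2 and ATOH1, beside 23.1% of all genes and 83.1% of the genes covered to at least 50% there in both DMSO lists. Of the 4 members in that class, NEUROG1, NEUROG3, OLIG1 and OLIG2, all 4 were lower. The difference was -37.5 ± 0.99 points at OLIG3, -24.5 ± 4.38 at NEUROD2, -23.2 ± 5.66 at OLIG2, -22.6 ± 2.26 at NEUROG1, -20.8 ± 2.26 at OLIG1, -18.1 ± 6.36 at NEUROD1 and -15.3 ± 0.44 at NEUROG3. Only OLIG3 stood apart from its neighbour in this order by more than their SDs. At NEUROG2 the differences were -4.40 and -10.6 points, and at ATOH1 they were -1.60 and 0.

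Relative to DMSO, cover after GSK126 was higher near the starts than away from them. Within 5 kb of the starts, mean cover in GSK126 was 75.0% of that in DMSO in replicate 1 and 85.1% in replicate 2. From 10 to 50 kb it was 57.3% and 56.2%. The differences in points were -15.9 ± 5.50 within 5 kb and -19.5 ± 2.36 farther out, and these did not differ by more than their SDs.

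**Figure D3:**
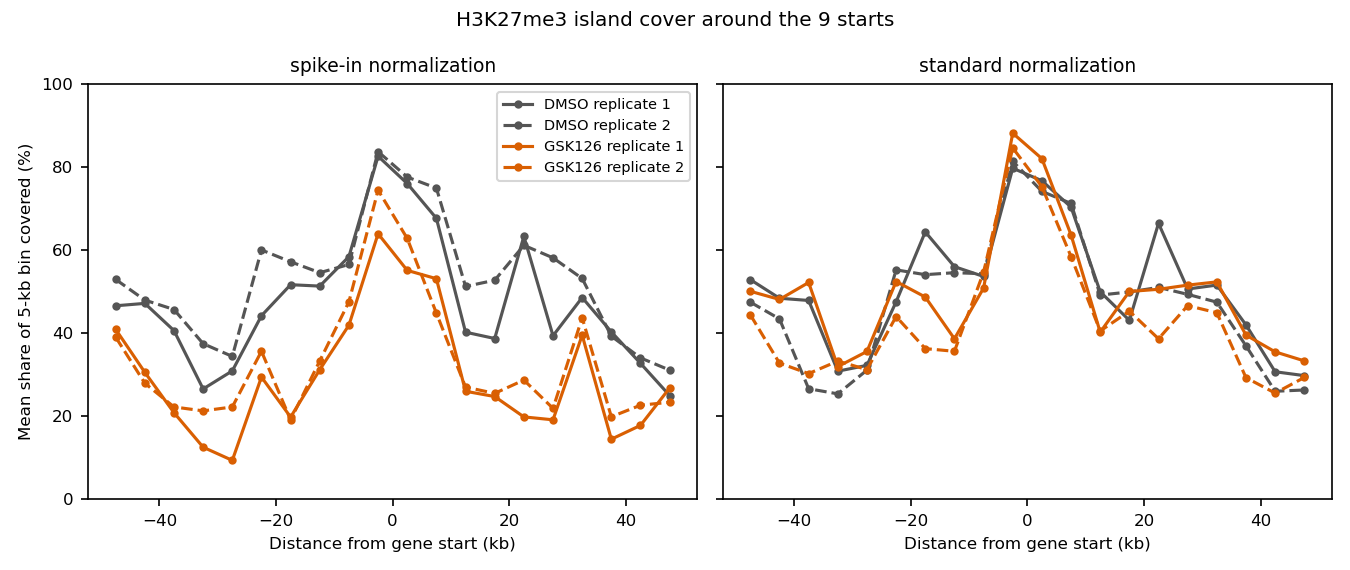
Mean H3K27me3 cover (%, y axis) of the 9 members in bins of 5 kb by distance from the start (kb, x axis), with DMSO in grey and GSK126 in orange, solid lines for replicate 1 and dashed lines for replicate 2. With spike-in normalization (left) GSK126 lies under DMSO of the same replicate in every bin but the last of replicate 1, with its peak next to the start. With standard normalization (right) the lines cross. Both GSK126 lines lie under both DMSO lines in some flank bins, at 38.7% and 35.6% against 56.1% and 54.6% from -15 to -10 kb. They lie over both from -5 to 0 kb, at 88.3% and 84.7% against 79.8% and 81.5%.

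The third comparison asked what islands gave at equal tag number. In the standard lists the authors had removed tags at random until the libraries of a replicate held the same number, and the densities read from the scores agreed within each replicate, at 1.36 tags per window in replicate 1 and 1.55 in replicate 2. Cover of the 9 windows was then 68.5% in DMSO and 73.6% in GSK126 in replicate 1 and 66.9% and 72.3% in replicate 2, a mean difference of +5.25 ± 0.217 points, opposite in sign to the spike-in value. None of the 9 members was called lower, beside 5.02% of all genes. NEUROG1, NEUROG3 and OLIG2 were at 100% in all 4 standard lists and ATOH1 was at 0% in all 4. NEUROD1 was covered to 24.3% and 34.1% in replicate 1 and to 35.3% and 40.8% in replicate 2, so the difference had the opposite sign from that with spike-in normalization. OLIG1 was covered to 22.3% in DMSO replicate 2 and to between 81.3% and 100% in the other 3 lists. NEUROD2 was covered to 83.0% in DMSO replicate 1 and to 100% in the other 3 lists. OLIG3 was covered to 79.4% in GSK126 replicate 2 and to 100% in the other 3 lists. NEUROG2 was lower with GSK126 in replicate 1 and higher in replicate 2. Only NEUROD1 was higher with GSK126 in both replicates. The small SD of the pooled difference therefore does not show a gain shared by the members. Within 50 kb the mean difference was -3.52 ± 2.53 points, and by the 10-point rule OLIG3 alone was lower there, by 18.2 and 23.2 points, beside 4.07% of all genes.

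Island scores were also compared at equal tag number. Windows with more tags, and so less probable under a random Poisson background, add more to the score of an island, and scores can be compared between these lists because their tag numbers are equal. Summed score per kb of island was 54.0 in DMSO and 98.3 in GSK126 in replicate 1 and 63.7 and 169 in replicate 2, a log2 ratio of 1.14 ± 0.39. This is a ratio of sums over islands called separately in each library. Member by member the ratio was above 1 at all 8 members with islands in replicate 1 and at 6 of 8 in replicate 2, where NEUROD1 was at 0.825 and OLIG3 at 0.941. The median of the ratio over these members was 1.503 and 2.01, beside 1.20 and 1.34 over genes covered to at least 50% in both standard DMSO lists, of which 70.1% and 70.9% were above 1. Only 6 of the members were in that class, so the medians of members and covered genes are over unlike sets.

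The density of tags inside the islands was then compared on the spike-in scale. The mean score per 200-bp window of the islands over a gene was converted to the number of tags that gives this score at the background density of its list, and the ratio of GSK126 to DMSO was formed in each replicate. Over the genes covered to at least 50% in both DMSO lists that had an island after GSK126, the median ratio was 0.329 (10th to 90th percentile 0.249 to 0.428) in replicate 1 and 0.296 (0.202 to 0.437) in replicate 2. NEUROD2 had 12.6 tags per window in DMSO and 8.64 in GSK126 in replicate 1 and 18.6 and 13.8 in replicate 2, ratios of 0.688 and 0.743. Ratios as high were reached by 8 of 1993 covered genes in replicate 1 and by 4 of 1968 in replicate 2, NEUROD2 included.

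The other members lay nearer the median. NEUROG1 had 9.06 and 2.71 tags per window in DMSO and GSK126 of replicate 1 and 13.0 and 3.90 in replicate 2, a ratio of 0.299 in both, although its window was wholly covered throughout. NEUROG3 had 13.5 and 5.01 tags per window in replicate 1 and 18.3 and 6.73 in replicate 2, ratios of 0.371 and 0.368. NEUROG2 had 12.6 and 4.29 in replicate 1 and 16.7 and 3.46 in replicate 2. NEUROG1 and NEUROG3 were covered to 100% in GSK126 at a density well under that of DMSO. OLIG2 had ratios of 0.398 and 0.511 and OLIG1 of 0.329 and 0.405. OLIG3, with no island in GSK126 replicate 1, had 11.1 and 2.27 tags per window in replicate 2. NEUROD1 had 8.73 and 4.19 in replicate 1 and 12 and 3.21 in replicate 2. The ratio is read only where an island was called, and the islands differ in extent, so each value is a mean over a region that differs between treatments.

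**Figure D4:**
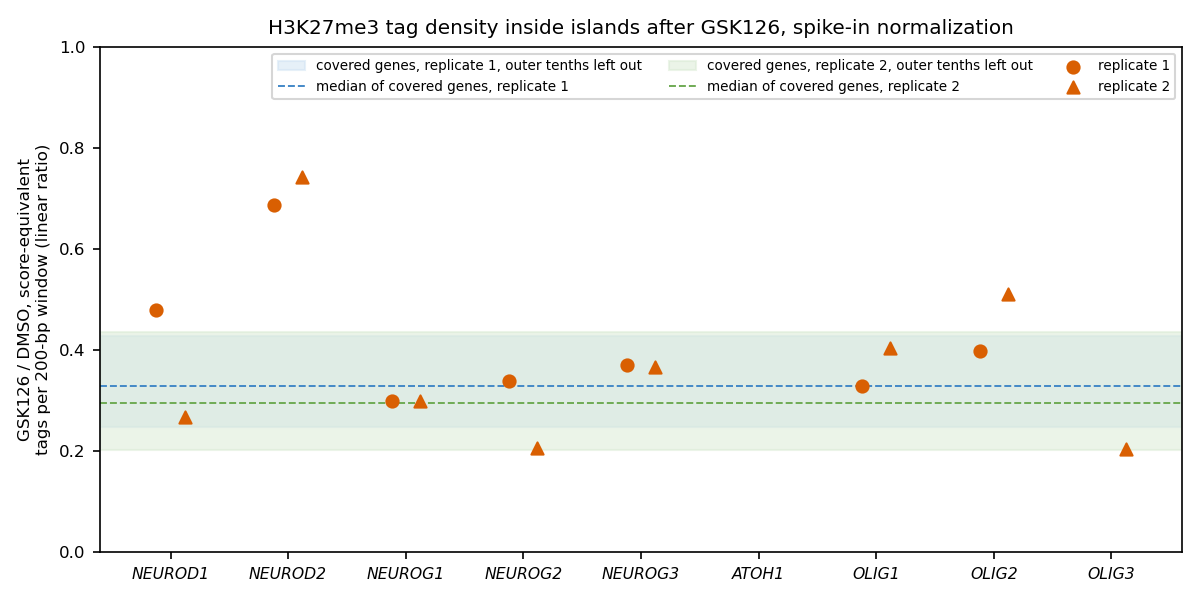
Ratio of GSK126 to DMSO in H3K27me3 tags per 200-bp window inside islands (linear scale, y axis), read from the scores of the spike-in lists, for each member, with circles for replicate 1 and triangles for replicate 2. Bands and dashed lines give the 10th to 90th percentiles and the medians over covered genes, NEUROD2 lies above both bands at 0.688 and 0.743, NEUROD1 in replicate 1 and OLIG2 in replicate 2 also lie above them, and ATOH1 and OLIG3 replicate 1 have no point because GSK126 had no island.

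The fourth comparison concerned H3K4me3, for which each DMSO library had a single list that served both normalizations. At 7 of the 9 members no H3K4me3 island was found in any of the 6 lists, which was so for 27.5% of all genes and for 60.0% of genes covered by H3K27me3 to at least 50%. Over the 9 windows cover was 12.1% in DMSO and 9.85% in GSK126 in replicate 1 and 3.41% and 4.93% in replicate 2 with spike-in normalization, a mean difference of -0.379 ± 2.68 points that was smaller than its SD and of opposite sign in the replicates. With standard normalization the mean was +0.189 ± 2.41 points.

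NEUROG2 had H3K4me3 in every list. Its window was covered to 90.03% in DMSO and 77.2% in GSK126 in replicate 1 and to 38.6% and 25.7% in replicate 2 of the spike-in lists. The replicates differed more than the treatments, and GSK126 was 12.9 points lower in both. This was the 1 member of 9 called lower, beside 1.05% of all genes. With standard normalization the GSK126 values were 77.2% and 30.0% and none of the 9 members was called, beside 1.04% of all genes. Cover is counted in windows of 200 bp, and the difference amounted to 600 bp in each replicate. Inside the islands the density was 31.1 tags per window in DMSO and 28.3 in GSK126 in replicate 1 and 15.5 and 19.9 in replicate 2, so it moved in opposite directions. Both marks lay on the same bases of the NEUROG2 window over 4000 bp in DMSO and 3600 bp in GSK126 in replicate 1 and over 1800 and 1200 bp in replicate 2. All of the H3K4me3 cover was inside H3K27me3 islands in every spike-in list but that of DMSO replicate 1, where 4000 of 4200 bp were. The NEUROG2 promoter printed above, which held 10 CG dinucleotides and no E-box, was covered by H3K27me3 over all 300 bp in the 4 spike-in lists and by H3K4me3 over 300 bp in both libraries of replicate 1 and 114 bp in both of replicate 2.

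ATOH1 had H3K4me3 at the start in 3 of the 4 spike-in libraries. Its window was covered to 52.2% in DMSO and 38.0% in GSK126 in replicate 1 and to 0% and 33.2% in replicate 2. The treatments overlapped and the replicates went opposite ways. The island of GSK126 replicate 2 held 2.35 tags per window, beside 11.2 and 14.5 in DMSO and GSK126 of replicate 1. The background of these lists differed as well, at 0.263, 1.77 and 1.48 tags per window in the same order. The densities of the replicates therefore cannot be compared directly. With a stricter threshold the mean difference changed from +9.50 to -7.12 points. Both marks overlapped at ATOH1 over 1400 bp in DMSO replicate 1 and over 0 bp in the other spike-in libraries.

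Genes of the same pathway were counted by the same rule from 7 lists: other class II bHLH factors, E proteins, Id inhibitors, Hes and Hey repressors, Notch ligands, Notch receptors and neurogenic targets. With spike-in normalization 19 of their 74 genes were lower in H3K27me3 and 0 were higher, beside the 15.8% of all genes called lower. Among the 27 covered to at least 50% in both DMSO lists 11 were lower (40.7%), under the 68.6% of all genes of that class. The count was 7 of 28 other class II bHLH genes, 3 of 10 Hes and Hey repressors, 1 of 5 Notch ligands, 1 of 4 Notch receptors and 7 of 20 neurogenic targets. It was 0 of 3 E proteins, the dimer partners of the members, and 0 of 4 Id genes, which sequester those partners. Of the E protein and Id genes only ID2 had H3K27me3 cover in both DMSO spike-in lists, at 89.6% in each. The others could not be called lower. NHLH1, a bHLH factor of developing neurons, was covered to 77.6% and 76.4% in DMSO and to 0% in both GSK126 lists. DLL4, a Notch ligand, was at 90.9% and 92.6% in DMSO and 31.2% in both GSK126 lists, and MNX1, a homeobox factor of motor neurons, was at 72.1% and 82.8% in DMSO and at 14% and 0% in GSK126. In the standard lists NHLH1 was at 46.3% and 77.2% in DMSO and 0% in both GSK126 lists. DLL4 was at 85.8% in DMSO and 90.9% in GSK126 in replicate 1 and at 78.9% and 80.6% in replicate 2, and MNX1 went opposite ways, with 69.9% in DMSO against 93.6% in GSK126 in replicate 1 and 68.0% against 12.9% in replicate 2.

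The members differed among themselves in their pattern over all 14 lists. Measured as the Euclidean distance between cover within 25 kb of the start and the median of the 9 members in each list, OLIG2 was closest at 16.3 points, followed by OLIG1 at 24.1, NEUROG1 at 26.3, NEUROD2 at 34.9 and OLIG3 at 39.1. NEUROG3, NEUROD1, NEUROG2 and ATOH1 were far from it, at 98.9, 108, 115 and 182 points. The genes outside the family with the nearest patterns were SALL3 at 10.5 points, GAS7 at 11.1, SMIM21 at 11.7, KY at 13.1 and LACRT at 14, and all 5 had no H3K4me3 island within 25 kb in any list. SALL3 was covered to 71.2% and 77.6% in DMSO and to 46.0% and 48.8% in GSK126 with spike-in normalization, beside medians of 68.8% and 79.2% and of 38.4% and 47.6% for the members.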

How the data were processed

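ChIP-seq of H3K27me3 and H3K4me3 in PC9 cells with DMSO or GSK126 was analysed from 8 libraries. The authors aligned tags to hg19 (GRCh37) with BWA, removed duplicates and kept unique tags, and the submitters' processing notes name SAMtools 0.1.18. SICER islands were called in each library against a random background with windows of 200 bp, an E-value of 1 and gaps of 600 bp (H3K27me3) or 200 bp (H3K4me3). The authors deposited for each island its position and a score, which depends on the number of tags. Before calling, tags had been removed at random, either to the smaller library of a replicate (standard) or by a factor from D. melanogaster tags (spike-in).

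Cover was computed with Python 3.11.15, NumPy 2.4.6 and SciPy 1.17.1 and drawn with Matplotlib 3.10.9, over GENCODE gene records plus 2000 bp upstream, and differences were formed within a replicate. The start of a gene is the 5-prime end of its record. Replicate numbers came from library names in the study, because tags were removed within a replicate, and the labels give none. A gene was called at 10 points in both replicates. Background tag density was solved from islands that span 1 or 2 windows, and this step and the cover were tested on simulated data. The tag ratio was also computed on simulated islands, but these had the same extent in both treatments and were not called. That simulation therefore does not cover islands whose extent differs between treatments. Tag counts were not used here, so no counting interval is given. Alternatives were a stricter score threshold (2 times the lowest score), other windows, a minimum island length, the standard DMSO list, leaving out each replicate and no pairing. All members are named. Of the pathway lists, genes that differed by at least 50 points in both replicates are named, apart from 1 result that is not reported here, and the 5 most similar genes were taken by distance. The equal-length and 50-kb backgrounds, the position of the members' tag ratios among covered genes, the part of DMSO islands covered by GSK126 islands and the score ratios of covered genes were added after seeing the data. The members and gene lists were chosen with earlier results of these data known.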

Additional observations from a re-analysis of the deposited data

How the results depend on the processing

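Of 46 recomputed values of the comparisons, 38 kept their direction and moved by less than the spread between replicates or, for counts, by less than 1.5 times. Part of this agreement was fixed in advance. With 2 replicates, leaving either out moves the mean by less than their SD, so only a change of sign could show there. Values without pairing keep the mean by construction. The H3K27me3 decrease with spike-in normalization ranged from -21.3 to -8.30 points when a replicate was left out, and was -10.5 points against the DMSO list of the standard normalization. The H3K27me3 difference with standard normalization was 7.01 points with a stricter score threshold, 7.53 points within 2000 bp of the start and 4.46 points over the gene body only. The H3K4me3 difference changed sign: with spike-in normalization it ranged from -2.27 to 1.52 points when a replicate was left out, positive without replicate 1, and with standard normalization from -1.52 without replicate 2 to 1.89 without replicate 1, and it was -1.14 with a stricter threshold and -0.148 over the gene body. The cause was not tested. Of all genes, 3165 were lower in H3K27me3 at 10 points and 1686 at 25 points. Of 165 recomputed values for single genes and counts, 34 moved by more than the same limits. Without the replicate as a block the means are necessarily the same, and the SD was 10.6 points for H3K27me3 with spike-in normalization in place of 9.16. Depth limits the shallow lists, where an island may go uncalled.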
